A study of Mus musculus with 3 samples.

Results

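The 10 genes of fibroblast growth factor (FGF) signaling described here are the ligands Fgf8, Fgf9, Fgf10, Fgf16 and Fgf20, the intracellular homologue Fgf12, and the receptors Fgfr1, Fgfr2, Fgfr3 and Fgfr4, of 22271 protein-coding genes in the annotation. They were chosen by name, with earlier results of these data known. Chromatin bound by NKX2-5, a homeodomain factor of the cardiac lineage, was collected from wild-type Parkes hearts at E11.5 in 2 ChIP libraries, S1 and S4, beside 1 Input library that was not analysed here. All of the hearts were of that strain, age and genotype, and the labels do not say how much of the adjoining second heart field mesoderm stayed on them, nor whether S1 and S4 came from separate collections of embryos. Enriched regions (peaks) had been called on mm9 separately for S1, which had 4418, and for S4, which had 5441. A peak carries a score in the form that MACS, the authors' peak caller, writes it (−10 log10 of its p-value), so that higher scores mean smaller p-values. The lists hold no peak that scored under 140 and carry no read numbers, so the depth is unknown and scores are not scaled between the libraries.

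FGFs are signaling proteins that act through a small family of receptor tyrosine kinases, with heparan sulfate on the cell surface as a cofactor. In the mouse embryo, FGF8 and FGF10 are made by the second heart field, the progenitor population that adds cells to the outflow tract and to the right side of the heart. FGF9, FGF16 and FGF20 are ligands of the forming heart wall, where the epicardium and endocardium signal to myocardium that carries FGFR1 and FGFR2. FGF12 belongs to a branch of the family that stays inside the cell and binds voltage-gated sodium channels.

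A peak was assigned to a gene when its midpoint lay within 100 kb of the gene body, and peaks of the libraries that overlapped by at least 1 bp made a shared region. By this rule 13 peaks of S1 and 15 peaks of S4 lay near the 10 genes, a mean of 14 ± 1.41 (SD, n = 2 libraries). They formed 7 shared regions at 3 genes, with 4 regions assigned to Fgfr2, 2 to Fgf10 and 1 to Fgfr3. Fgf20 and Fgfr1 had peaks without a partner in the other library, and no peak of either library was assigned to Fgf8, Fgf9, Fgf12, Fgf16 or Fgfr4. Since there was 1 condition and 2 libraries, the design allowed no test between groups, and the values below are descriptions.

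The body of Fgfr2 needs care, because a single annotated transcript sets its length. Fgfr2-007 runs from chr7:137305965 to 140315033, which is 3009 kb, whereas the other 28 transcripts together span 104 kb from 137306026 to 137410322. The long transcript has 2 exons beyond the others, and 31 other protein-coding genes lie wholly in the stretch that it alone covers. Without it, Fgfr2 kept 3 peaks of S1, 2 peaks of S4 and 1 shared region. The totals over the 10 genes then came to 9 peaks in S1, 7 peaks in S4 and 4 shared regions. Counts over the genes are given below with and without the long transcript where they differ, and distances to Fgfr2 are measured from the start of the other transcripts, at 137410322.

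**Figure D1:**
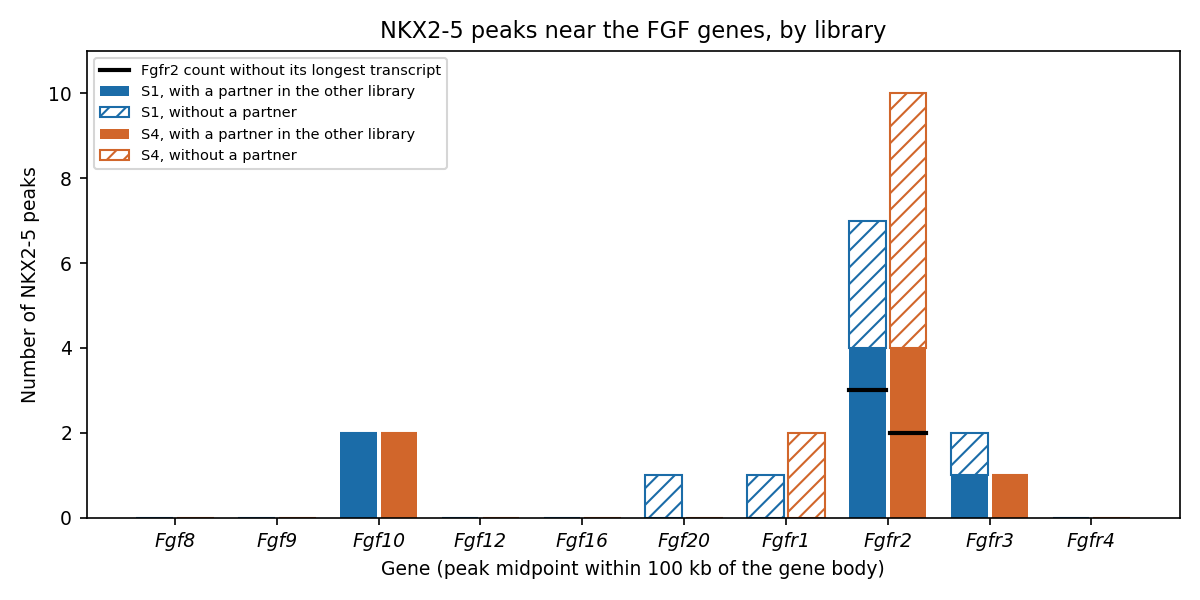
Number of NKX2-5 peaks (vertical axis) with the midpoint within 100 kb of each gene body, for S1 (blue) and S4 (orange), with filled bars for peaks that overlap a peak of the other library and hatched bars for those that do not. Fgfr2 has 7 and 10 peaks by its annotated body, and the black lines mark the 3 and 2 that remain without its longest transcript, while 5 genes have no peak.

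Of the shared regions, 3 lay nearer to an FGF gene than to the start of any other coding gene, 2 at Fgf10 and 1 upstream of Fgfr2. Their sequences are shown because both libraries had a peak there and the nearest coding start was that of the FGF gene. A nearest start does not show which gene a region acts on. Each line gives 201 bases centered on the overlap of the S1 and S4 peaks, read 5′ to 3′ from the plus strand of NCBIM37 (mm9). The capitals mark exact matches on either strand to AAGTG, the core of the NKX2-5 site (with TNAAGTG as its longer form), and to TGACA, the core of the MEIS1 site, so that CACTT and TGTCA are the same cores read from the minus strand.
Fgf10 upstream of the coding start, chr13:119483794-119483994: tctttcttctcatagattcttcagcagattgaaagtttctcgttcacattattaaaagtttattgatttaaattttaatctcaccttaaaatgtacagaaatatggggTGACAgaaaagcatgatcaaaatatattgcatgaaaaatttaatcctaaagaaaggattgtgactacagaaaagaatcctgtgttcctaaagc
Fgf10 intron 1, chr13:119547840-119548040: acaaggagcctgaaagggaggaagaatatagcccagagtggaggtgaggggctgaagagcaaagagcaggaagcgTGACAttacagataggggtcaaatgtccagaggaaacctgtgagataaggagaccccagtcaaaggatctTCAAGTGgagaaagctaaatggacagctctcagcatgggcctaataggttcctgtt
Fgfr2 upstream, chr7:137460096-137460296: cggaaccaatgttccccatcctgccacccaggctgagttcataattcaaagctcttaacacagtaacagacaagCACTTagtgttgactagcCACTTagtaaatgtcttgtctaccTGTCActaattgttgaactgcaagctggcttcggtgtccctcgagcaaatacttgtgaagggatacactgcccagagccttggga

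Fgf10, a second heart field ligand whose gene lies on chromosome 13 from 119458598 to 119580922, had 2 peaks in each library, and all of them had a partner. In S1 the upstream peak spanned 613 bp, at chr13:119483588-119484200, and scored 401. In S4 it spanned 985 bp, at 119483516-119484500, and scored 334. The S4 peak enclosed the S1 peak. The center of their overlap was 19.6 kb upstream of the start of the coding transcript, inside an intron of 2 annotated non-coding transcripts of Fgf10 that begin farther upstream. The second pair lay 44.4 kb downstream of the coding start, in intron 1 of 2 introns of the coding transcript, which is 65.8 kb long. The S1 call there was 526 bp wide, at chr13:119547678-119548203, and scored 510, whereas the S4 call was 795 bp wide, at 119547510-119548304, and scored 256. Again the S1 peak lay wholly within the S4 peak, and the midpoints were 33.5 bp apart.

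The order of the Fgf10 regions differed between the libraries. The intronic region scored higher than the upstream region in S1, with 88.3% and 82.9% of that list scoring lower, whereas in S4 the upstream region scored higher, with 74.0% of the list lower against 60.1% for the intronic region. The intronic score in S1 was 1.99-fold that in S4, near the edge of the 2-fold range that holds 84.0% of all 2610 overlapping pairs. With 1 value per library and unknown depth, neither order can be set against a replicate error.

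Fgf8, the other second heart field ligand, had no assigned peak. Its gene body is at chr19:45811288-45817405. The nearest S4 peak was 112 kb from it, at chr19:45929004-45929605, with a score of 204, in an intron of 9130011E15Rik and without a partner. The nearest S1 peak was 395 kb away, with a score of 151, within 1 kb of an annotated start of Pitx3. The nearest shared region was 762 kb away, in an intron of Trim8, and scored 211 in S1 against 163 in S4. A gene has no assigned peak where nothing passed the threshold of the deposited lists, which is no measure of how much NKX2-5 lay there.

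Set side by side, the windows of Fgf8 and Fgf10 covered 0.528 Mb and held 3.78 peaks per Mb in each library, all at Fgf10. The windows of the other 8 genes covered 5.07 Mb and held 2.17 peaks per Mb in S1 and 2.56 in S4, or 3.23 and 2.31 over 2.16 Mb without the long Fgfr2 transcript. The rate over the 20 chromosomes with peaks was 1.67 per Mb in S1 and 2.06 in S4. That rate is over their whole length, and none is given over the windows of all protein-coding genes. It is thus no like background for the FGF windows. Shared regions numbered 2 near Fgf8 and Fgf10 (3.78 per Mb) and 5 near the other 8 genes (0.986 per Mb), which fell to 2 (0.924 per Mb) without the long transcript, against 0.965 per Mb over those chromosomes. Of the other 8 genes, Fgfr2 and Fgfr3 had a shared region. The median score was 455 near Fgf10 against 231 near the other 8 genes in S1, and 295 against 248 in S4. It was higher near Fgf10 in both libraries, but over 2 peaks of 1 gene, since Fgf8 added none.

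**Figure D2:**
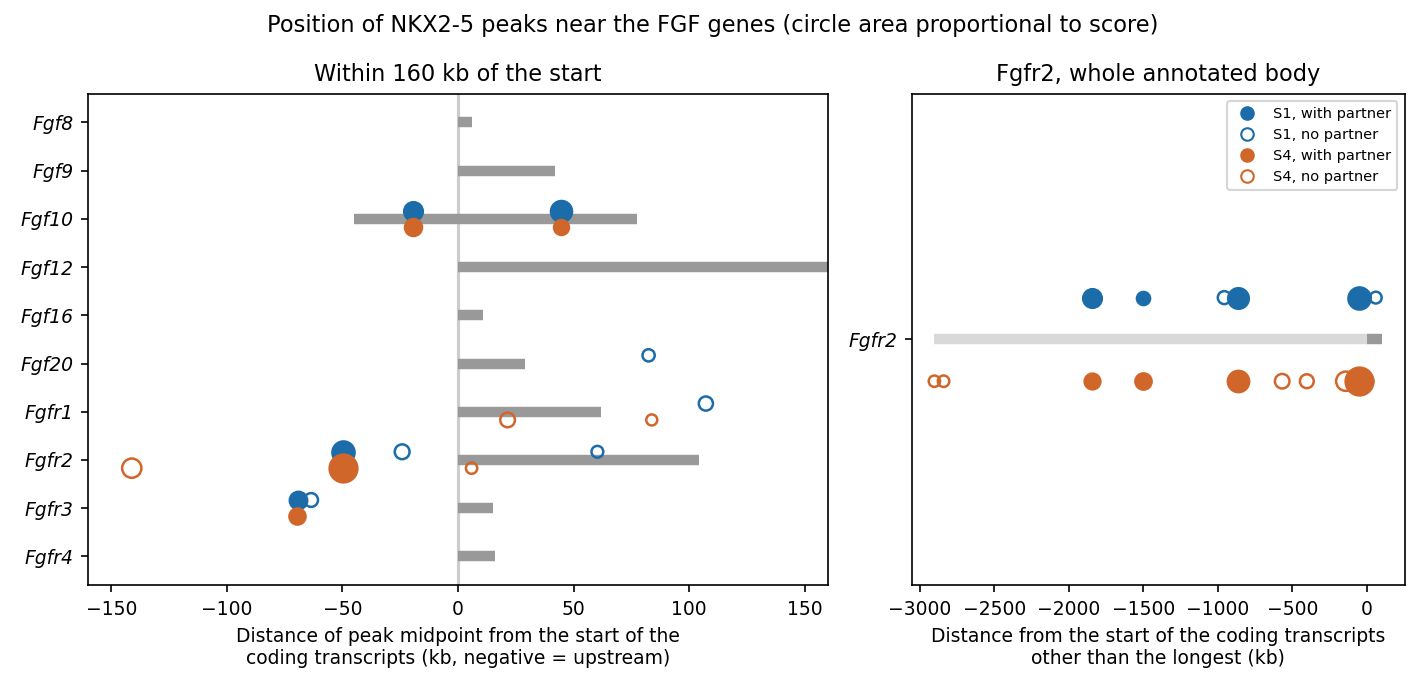
Distance of each peak midpoint from the start of the coding transcripts (horizontal axis, kb, negative values upstream), with 1 row per gene on the left and the whole annotated body of Fgfr2 on the right, S1 in blue above the line and S4 in orange below it, filled circles with and open circles without a partner, circle area proportional to the score and grey bars for the annotated body (light grey for the part of Fgfr2 that only its longest transcript covers). On the left, filled circles lie at Fgf10 (−19.6 and 44.4 kb), Fgfr2 (−49.9 kb) and Fgfr3 (−69.4 kb), and the rows of Fgf8, Fgf9, Fgf12, Fgf16 and Fgfr4 are empty.

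Among the receptors, which are the kinases that bind the secreted ligands, Fgfr2 had the region with the best rank near any of the 10 genes. It lay 49.9 kb upstream of the start of the shorter transcripts. The S1 peak, at chr7:137459724-137460669, was 946 bp wide and scored 564. The S4 peak, at 137459607-137460721, was 1115 bp wide and scored 887. Of the lists, 89.9% in S1 and 95.2% in S4 scored lower. The region was intergenic when Fgfr2-007 was left out, and its nearest coding start was that of Fgfr2. Here S4 scored 1.57-fold higher than S1, the opposite direction from both Fgf10 regions.

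Fgfr2 also had peaks without a partner at its shorter transcripts. In S1 these were a peak at chr7:137434303-137434618, 24.1 kb upstream, with a score of 253, and a peak of score 160 in intron 4 of transcript Fgfr2-002. In S4 a peak of score 147, at 137404113-137404732 in intron 2 of that transcript, had its midpoint 0.949 kb downstream of the start of another Fgfr2 transcript. It was the sole peak near the 10 genes whose midpoint lay within 1 kb of an annotated start of its own gene, and it scored higher than 7.30% of the S4 list.

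The other 3 shared regions assigned to Fgfr2 lay between 863 kb and 1844 kb upstream of its shorter transcripts. The best ranked of them was 16.2 kb from the start of 4933402N03Rik. S1 placed it at chr7:138273325-138273868 and scored it 488, and S4 placed it at 138273094-138274020 and scored it 523. Another lay in an intron of Cpxm2, where the S1 peak at 139254240-139255214 scored 399.96 and the S4 peak at 139254288-139255159 scored 285. The third lay 151 kb from the start of Gm16477, with scores of 198 and 303. The highest-scoring peak without a partner near any of the genes, an S4 peak at 137551007-137551838 with a score of 428, was also assigned to Fgfr2 only through the long transcript and lay in an intron of Ate1. None of these regions had the start of Fgfr2 as its nearest coding start.

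Fgfr1, the receptor of the myocardium and of early mesoderm, had no shared region. Its body is at chr8:26624126-26686186. In S4 a peak of 899 bp at chr8:26645150-26646048, which scored 248, lay in intron 2 of transcript Fgfr1-001, 21.5 kb downstream of the first annotated start and 2.85 kb downstream of the start of a shorter coding transcript. The nearest S1 peak to it was 84.9 kb away. A second S4 peak, with a score of 140, close to the lowest in the list, was at the start of Letm2. The S1 peak assigned to Fgfr1, at 26730992-26731747 with a score of 231, lay in an intron of Whsc1l1. The libraries thus shared no region here, and 1 of the 3 peaks was in the gene itself.

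Fgfr3, a receptor best known from the growth plate of bone, had its body at chr5:34064373-34079716 and 1 shared region 69.4 kb upstream. The S1 peak, at chr5:33994537-33995706, was 1170 bp wide and scored 348. The S4 peak, at 33994421-33995368, was 948 bp wide and scored 299.8. Their overlap was centered 0.003 kb from the start of Slbp, which encodes a histone mRNA-binding protein, so the region was at the promoter of that gene. A further S1 peak, with a score of 218, was at 34000432-34001270, within 1 kb of annotated starts of Tacc3 and Tmem129. It was the peak without a partner that came closest to the other library, 5.06 kb from an S4 peak.

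Fgf20, a ligand of the FGF9 subfamily, had 1 peak, in S1. It lay at chr8:41311038-41311386 in intergenic sequence, 53.3 kb from the gene body (41364520-41393685). It was 349 bp wide and scored 172. The nearest S4 peak was 370 kb from it, and the nearest shared region to the gene was 709 kb away.

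The remaining genes had no peak within 100 kb, and their distances to the nearest shared region ranged from 188 kb to 4124 kb. Fgf9 (chr14:58689384-58731174) was the closest, with a region 188 kb beyond the end of its body that scored higher than any region assigned to the 10 genes. It lay at chr14:58919023-58919727 in S1, with a score of 921, and at 58918904-58920071 in S4, with a score of 1476, and 96.1% and 98.4% of the lists scored lower. The sequence there was intergenic, and the nearest coding start was that of Fgf9, 224 kb away. It was singled out after its values were seen. For Fgfr4 (chr13:55254001-55270120), a receptor of muscle precursors and liver, the nearest shared region was 327 kb away and close to Dbn1, with scores of 762 and 803. Fgf12 (chr16:28160206-28445313) and Fgf16 (chrX:102959618-102970278) were farther from any shared region, at 1298 kb and 4124 kb. Even the nearest unpartnered peak was 753 kb from Fgf12, in S4, and 2151 kb from Fgf16, in S1.

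The peaks near the FGF genes were too few to say whether they overlapped between the libraries more or less often than peaks in general. A partner was present for 7 of 13 peaks of S1 (53.8%, 95% Clopper-Pearson interval 25.1 to 80.8) and for 7 of 15 peaks of S4 (46.7%, 21.3 to 73.4), and the intervals cover counting error only. Over the whole lists the shares were 58.9% and 47.0%. Without the long Fgfr2 transcript they were 44.4% (4 of 9, 13.7 to 78.8) and 57.1% (4 of 7, 18.4 to 90.1). The 14 peaks without a partner lay between 5.06 kb and 370 kb from the nearest peak of the other library and scored from 140 to 428, with a median of 206. Without the long transcript 8 of these remained, which scored from 140 to 253 with a median of 195. The shared peaks scored from 198 to 564 in S1, or from 348 to 564 without the long transcript, and from 256 to 887 in S4 with or without it. The median score of all peaks near the genes was 253 in S1 and 256 in S4, against 212 and 223 in the lists, and the median width was 613 bp and 832 bp, against 625 bp and 783 bp. Without the long transcript the S4 median width was 899 bp and the other 3 medians were the same. The highest scores near the genes, 564 and 887, were below the list maximum of 3100.

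**Figure D3:**
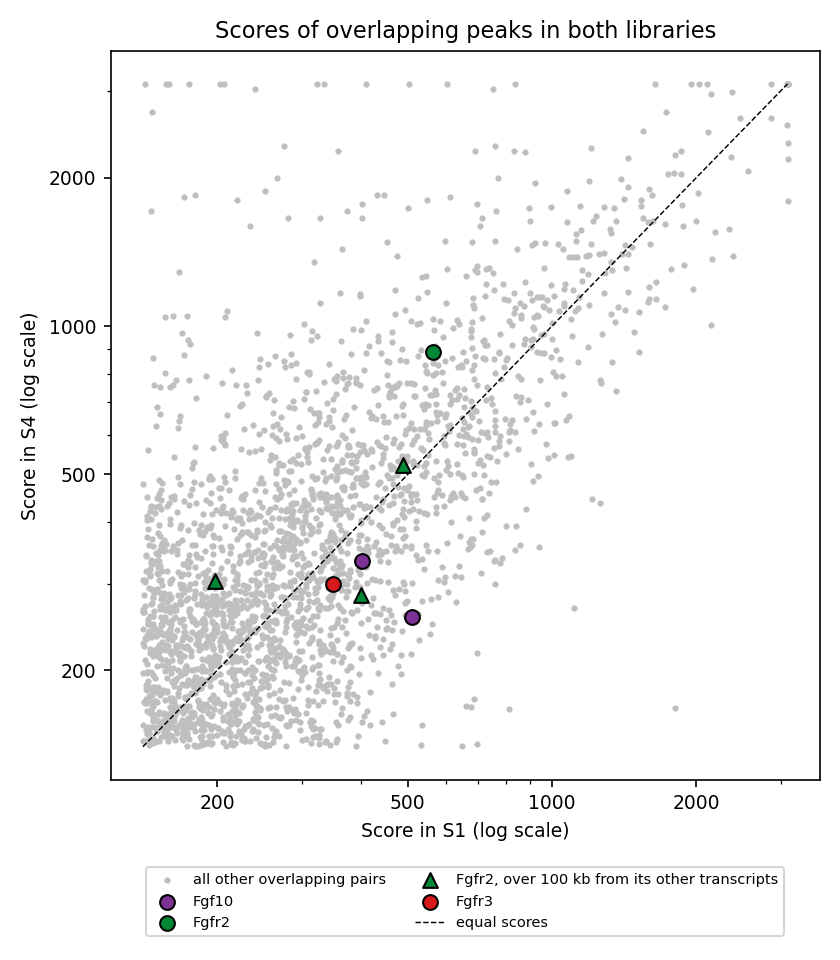
Score in S1 (horizontal axis) against score in S4 (vertical axis), both on log scales, for the 2610 overlapping pairs of peaks, with grey points for pairs elsewhere, circles for regions near Fgf10, Fgfr2 and Fgfr3, triangles for the 3 regions over 100 kb from the shorter Fgfr2 transcripts and a dashed line of equal scores. Both Fgf10 regions and the Fgfr3 region lie below the line and the Fgfr2 circle lies above it, all within the spread of the grey points.

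The counts of genes were read against all protein-coding genes under the same rule. An S1 peak was assigned to 5 of the 10 FGF genes and to 38.4% of protein-coding genes. An S4 peak was assigned to 4 of the 10, against 44.6%. A shared region was assigned to 3 of the 10, against 24.3%. For the 5 FGF genes without a peak in either library, no such share of all genes is given. At least 2 shared regions were assigned to Fgf10 and Fgfr2, the latter only by its annotated body, and to 6.95% of all genes. Longer bodies take in more peaks, so the genes were also grouped by length. Of the 4 with a body under 20 kb, Fgfr3 had a shared region, against 21.3% of such genes. Of the 4 with a body of 20 kb to under 200 kb, Fgf10 had shared regions, against 26.8%. Of the 2 with a body of 200 kb or more, Fgfr2 had shared regions and Fgf12 had none, against 40.4%. Fgfr2 is in that class only through the long transcript. Without it the middle class held 5 genes, of which Fgf10 and Fgfr2 had a shared region, the longest class held Fgf12 alone, and Fgf10 was the 1 gene with at least 2 shared regions. With 10 genes each gene moves a share by 10 percentage points.

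The motif cores were compared with those in all 2546 shared regions, in windows that reached 100 bp to either side of the center. AAGTG was present in 5 of the 7 regions (64.0% of all shared regions hold it) and TNAAGTG in 3 (32.4%). TGACA was present in 5 (64.5%). Of the 4 regions that remained without the long Fgfr2 transcript, AAGTG was in 3, TNAAGTG in 2 and TGACA in 3. In the pair at Fgf10, the intronic window held TCAAGTG and a TGACA centered 48 bp after and 23 bp before the middle of the window, whereas the upstream window held TGACA and no exact AAGTG. The Fgfr2 window held AAGTG in 2 places, 24 bp and 6 bp before its middle, and TGACA 18 bp after it. The window at Slbp held TNAAGTG on each strand and no TGACA. Neither the direct overlap of the cores, AAGTGACA (2.32% of all shared regions), nor the spaced form GTGNTGACA (9.54%) was found in any of the 7 windows. AAGTGACA contains both AAGTG and TGACA, and TNAAGTG contains AAGTG, so these counts overlap. A match of this length is frequent by itself and is not evidence of a binding site.

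The FGF pathway beyond the 10 genes was described from a list of 47 further genes, of which 46 were in the annotation and Spry3 was not matched. A shared region was assigned to 16 of the 46 (34.8%, against 24.3% of protein-coding genes). An S1 peak was assigned to 23 of them (50%, against 38.4%) and an S4 peak to 30 (65.2%, against 44.6%). These genes were listed with earlier results of these data known and were not grouped by body length. A peak within reach of several neighboring genes counts for each, here as in the background, so the genes are not independent. By role, shared regions were assigned to 3 of 13 other ligands, 2 of 3 other intracellular homologues, 2 of 10 receptor-like proteins and co-receptors, 4 of 8 adaptors, 3 of 8 inhibitors and 2 of 4 transcriptional targets or effectors. No peak of either library was assigned to 13 genes, namely Fgf2, Fgf5, Fgf18, Fgfrl1, Kl, Flrt2, Gpc3, Sdc1, Sdc4, Sos1, Plcg1, Spry1 and Spred3. The share of all protein-coding genes without a peak is not given, so that count cannot be judged against the background.

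The best-ranked shared region of these genes was near Frs2, the adaptor that docks on activated FGF receptors, and it scored 757 in S1 and 859 in S4. It lay 0.056 kb from the start of Lrrc10, a heart-expressed gene of the neighborhood. Fgf11, an intracellular homologue, was next, with scores of 596 and 578 at the start of Polr2a. For Fgf1, an acidic FGF with broad receptor binding, the scores were 551 and 547 in an intron of Arhgap26. For Gpc1, a heparan sulfate proteoglycan, they were 521 and 444 in intergenic sequence 56.1 kb upstream of its own start. For Fgf6, a ligand of skeletal muscle, they were 344 and 356 at the start of D6Wsu163e.

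For 10 of the 16 genes the best-ranked region was nearer to the start of another gene, and none of the 8 regions at a promoter was at the promoter of the listed gene. The 6 genes that were themselves nearest to their region were Fgf7, Fgf13, Gpc1, Spred2, Il17rd and Dusp6, which are named after their values were seen. Fgf7, a ligand of the same subfamily as Fgf10, had a region 19.4 kb upstream of its start, in an intron of 4930525F21Rik, with scores of 171 and 202. Fgf13, an intracellular homologue on the X chromosome, had 2 shared regions, the better of which scored 398 and 314 inside the gene. Spred2 and Il17rd, inhibitors of receptor signaling, had 2 shared regions each, with scores of 193 and 389 for the better region of Spred2, 8.87 kb from the nearest start, and 232 and 252 for that of Il17rd. Dusp6, the phosphatase that switches off ERK and is itself induced by FGF, had 1, with scores of 162 and 191, 73.1 kb downstream of its start.

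**Figure D4:**
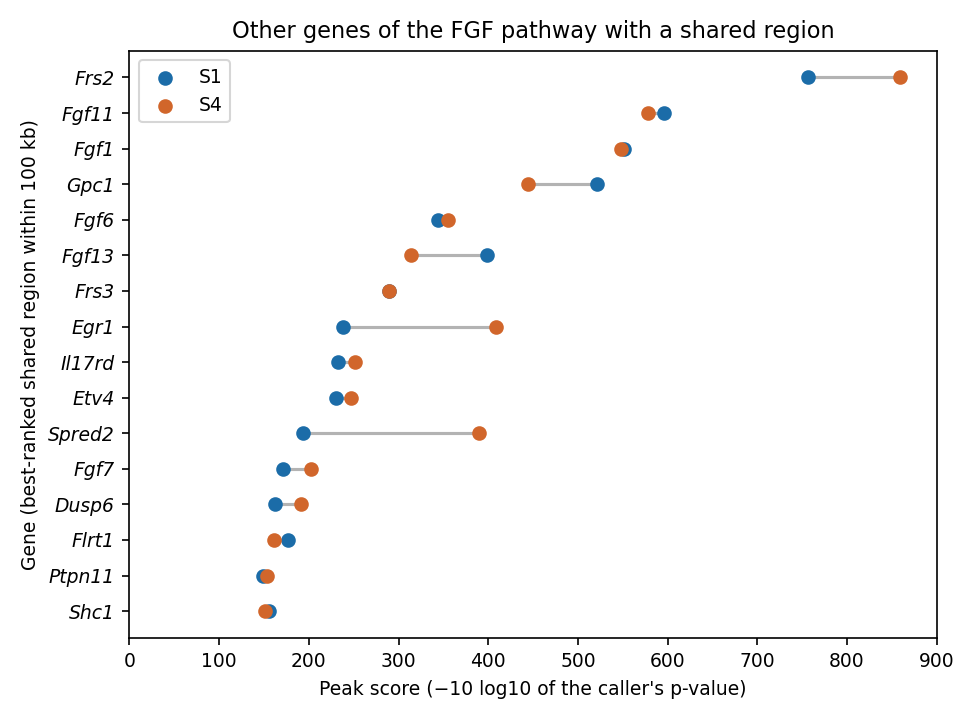
Peak score (horizontal axis) in S1 (blue) and S4 (orange) of the best-ranked shared region within 100 kb of each of the 16 other FGF pathway genes that have one, with genes ordered by the worse of the ranks in both lists and a line joining the libraries. Frs2 stands at the top with 757 and 859, and the libraries are farthest apart for Spred2 (193 and 389).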

How the data were processed

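NKX2-5 ChIP libraries S1 and S4 and an Input were grouped by their labels. The Input was not analysed here. Per the labels and the study's methods, the authors used CASAVA 1.4, aligned reads to mm9 with BOWTIE and called peaks with MACS 1.4, library by library. The settings, and whether the Input served as control, are not given in the sources used here. The deposited score is −10 log10 of the caller's p-value, in the form MACS writes it, and other deposited columns are positions in base pairs. Depth is unknown.

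Coordinates are counted from 1. No peak ran past a chromosome end of NCBIM37 (mm9). Genes came from GENCODE M1, and overlapping protein-coding entries of 1 symbol were merged. A promoter was within 1 kb of a transcript start. Shared peaks overlapped by at least 1 bp, and bedtools 2.31.1 gave the same counts. Procedures were tested on simulated data. Shares have exact 95% Clopper-Pearson intervals. No group test was possible. The members and lists were chosen with earlier results of these data known. By plan, all 10 genes, up to 3 shared regions a gene by the worse rank and 5 pathway genes by rank were to be named. The plan added the highest peak without a partner per gene and library. Beyond it, all shared regions assigned to Fgfr2 and further peaks without a partner at Fgfr1 and Fgfr2 are described. Alternatives changed the window, overlap, score minimum, assignment, motif window and Fgfr2 body. Calculations used Python 3.11.15, numpy 2.4.6, pandas 2.3.3 and scipy 1.17.1.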

Additional observations from a re-analysis of the deposited data

How the results depend on the processing

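Of 76 alternative values, 57 stayed in place (counts within 1.5-fold, shares inside their interval, medians within the spread of the libraries) and 19 moved. None had a test. The share intervals were wide (25.1 to 80.8 for S1, 21.3 to 73.4 for S4), whereas the medians of the libraries were close together. The tally therefore depends on these rules and is no measure of robustness. Leaving out the long Fgfr2 transcript, chosen after seeing the data, lowered the mean number of peaks from 14 to 8. The shared regions fell from 7 to 4 and those near the other 8 genes from 5 to 2. These falls follow from the smaller window. Within 100 kb of the gene start these counts were 6, 3 and 1, and with the member as the nearest coding start 5.5, 3 and 1. Without the long transcript, regions with at least 1 motif fell from 7 of 7 to 4 of 4, for the same reason. Of all shared regions, 84.6% held at least 1 motif. In the gene-start alternative the start of Fgfr2 was that of its long transcript, at 140315033, and not 137410322. That window left out the shared region 49.9 kb upstream of the shorter transcripts, so its counts and medians depend on the long transcript. The median scores, 253 in S1 and 256 in S4, became 327 and 252 within 50 kb, 348 and 271 within 200 kb, 348 and 248 within 100 kb of the start, and 400.0 and 299.8 with a score of at least 200. With the member as nearest start the S1 median was 327. The cause of the moved medians was not tested. Either library alone gave 13 to 15 peaks. The count of shared regions near Fgf8 and Fgf10 stayed at 2 under each of the 8 alternatives run for it. No paired analysis was possible because there was 1 condition. Unknown depth limits the reading of scores and of genes without a peak.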

Other observations

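Fgfr2 had the longest body of the 13544 protein-coding genes with at least 2 transcripts in this annotation, 3009 kb. Its body was 28.9 times as long as that of its other transcripts. Only 4 genes had a body of at least 500 kb that was at least 10 times that of the remaining transcripts. They were Grid1, Fam155a, Gpc5 and Fgfr2. Of the 4, 2 had a shared region within 100 kb of the annotated body against 1 of 4 without the long transcript. Among protein-coding genes with a body of 200 kb or more the share was 40.4%. It was 26.8% from 20 kb to under 200 kb and 21.3% under 20 kb. Within 200 kb of the bodies, the number of FGF genes with a shared region was 4 in place of 3, the added gene being Fgf9. It was 2 within 50 kb of the bodies and within 100 kb of the gene start. It was also 2 with the member as the nearest coding start and with midpoints of paired peaks within 150 bp. The share of all protein-coding genes is not given under these settings.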
